A study of Saccharomyces cerevisiae with 30 samples.

Results

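The 3' part of the head of yeast 18S rRNA, A1446 to A1633 counted from the 5' end of 18S, was examined in precursor and mature small ribosomal subunits of Saccharomyces cerevisiae. The stretch ends with the return strand of the neck, the helix that joins the head to the body of the subunit. Its members were the A and C that at least 1000 reads covered in each of the 30 libraries, by the effective depth of the deposited profiles. All 88 A and C of the 188 nucleotides met this rule (40 A and 48 C), which is 11.3% of the 776 A and C of 18S that met it, and the shallowest library at the shallowest member held 2025 reads. The libraries came from S15_YRR pre-40S (3 replicates), Rio2_Δloop pre-40S (4), mature 40S (3) and WT pre-40S (5), each replicate with a library treated with 1% dimethyl sulfate (DMS) at 30 °C for 5 min and an untreated library (NC). S15_YRR carries a mutant of ribosomal protein S15, and Rio2_Δloop lacks a loop of the kinase Rio2. The pre-40S of these 3 strains, WT included, were purified through a TAP tag on Rio2, so the precursors compared here are those that hold Rio2.

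DMS methylates the pairing face of A and C where it is exposed, and reverse transcriptase reads the methylated base as a mutation. A base that is paired, stacked away or covered by protein is reached less. S15 is a protein of the head, and Rio2 binds the precursor at the head near the decoding site and leaves before the subunit is finished. The neck is the hinge on which the head turns during translation. The sequence of the stretch is shown because the results turn on where in it the reactive bases lie. Letters were taken from the deposited profiles, and the capitals mark the 8 members whose DMS signal passed the limit for testing.
A1446 to A1633: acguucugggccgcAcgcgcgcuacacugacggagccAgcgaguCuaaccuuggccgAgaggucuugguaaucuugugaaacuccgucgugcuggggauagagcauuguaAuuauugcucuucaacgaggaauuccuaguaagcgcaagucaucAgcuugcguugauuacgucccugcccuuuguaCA

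These 8 members were A1460, A1483, C1490, A1503, A1556, A1600, C1632 and A1633. Over the 15 replicates their mean mutation rate with DMS was 2 or more times that in the NC libraries. A1600, with a ratio of 2.11, lay just inside this limit and A1493, with 1.98, just outside. The tested share was 9.09% here, 12.5% in the 5' part of the head (7 of 56 at U1145 to G1264), 14.5% in the head junction (10 of 69 at G1265 to G1445) and 14.2% over the rest of 18S (98 of 688). The other 80 members entered no test under this limit and are described by their levels.

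The median effective depth over the stretch ran from 5011 to 29654.5 reads in the DMS libraries and from 3874.5 to 21619 in the NC libraries, and the depth of ITS1, the spacer kept in precursor rRNA, over that of 18S was 0.301 to 0.914 in the pre-40S libraries and 0.00234 to 0.0128 in mature 40S. Clustering of the NC profiles gave groups of replicates, called library sets here, that did not follow the particles. Set 1 held all 3 S15_YRR replicates, Rio2_Δloop replicates 3 and 4, mature replicates 2 and 3 and WT replicates 4 and 5, and set 2 held Rio2_Δloop replicates 1 and 2 and WT replicates 2 and 3. WT replicate 1 and mature replicate 1 each stood alone. In WT replicate 1 the mean DMS minus NC rate over the 48 C was -0.566 percentage points, against 0.0186 to 0.199 in the other WT replicates.

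Most of the stretch was weakly reactive in every particle, and the reactive bases were few. The mean DMS minus NC rate over the 40 A was 0.287 ± 0.0827 percentage points in S15_YRR (SD, n = 3), 0.263 ± 0.0791 in Rio2_Δloop (n = 4), 0.174 ± 0.0506 in mature 40S (n = 3) and 0.0892 ± 0.363 in WT (n = 5; 0.236 ± 0.179 without WT replicate 1). Over the 48 C it was 0.218 ± 0.0259 in S15_YRR, 0.133 ± 0.0895 in Rio2_Δloop, 0.103 ± 0.0499 in mature 40S and -0.0268 ± 0.308 in WT (0.108 ± 0.0742 without WT replicate 1). C1632 carries much of the S15_YRR mean: over the other 47 C the means were 0.115 ± 0.0146 in S15_YRR, 0.0966 ± 0.0759 in Rio2_Δloop, 0.0998 ± 0.0518 in mature 40S and -0.108 ± 0.291 in WT (0.0202 ± 0.0542 without WT replicate 1), a choice made after seeing the data. The median over the 48 C was 0.0472 to 0.0992 in the S15_YRR replicates, -0.0127 to 0.122 in Rio2_Δloop, 0.0364 to 0.0929 in mature 40S and -0.452 to 0.0274 in WT.

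The parts were compared by their mean rate in each replicate, which a few strong bases can carry. By this mean, the A of the stretch lay below the A of the rest of 18S in 15 of 15 replicates, with a difference of -0.147 ± 0.0504 percentage points (SD). They lay below those of the head junction in 15 of 15, with a difference of -0.0776 ± 0.0512. Against the 5' part of the head they were lower in 14 of 15, with a difference of -0.126 ± 0.0834. By the median over the A, the order against the rest of 18S varied between replicates. It was 0.321 in the stretch and 0.244 in the rest in WT replicate 4, and 0.102 and 0.179 in Rio2_Δloop replicate 1. By the mean, the C lay below those of the 5' part of the head in 14 of 15 replicates, with a difference of -0.19 ± 0.145. By the median over the C this order varied between replicates. In mature replicate 3 it was 0.0929 in the stretch and 0.0024 in the 5' part of the head. In WT replicate 4 it was 0.00698 and 0.205. Against the C of the rest of 18S they were lower in 10 of 15, with a difference of -0.0315 ± 0.0836 that is smaller than its spread, and against those of the head junction in 3 of 15, with a difference of 0.0579 ± 0.11. Without C1632 the C were lower in 15 of 15 against the 5' part of the head (-0.248 ± 0.131), in 13 of 15 against the rest of 18S (-0.0895 ± 0.0757) and in 7 of 15 against the head junction (-0.000189 ± 0.0983). No base was left out of the other parts for this. The members share their libraries, so these are descriptions.

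**Figure D1:**
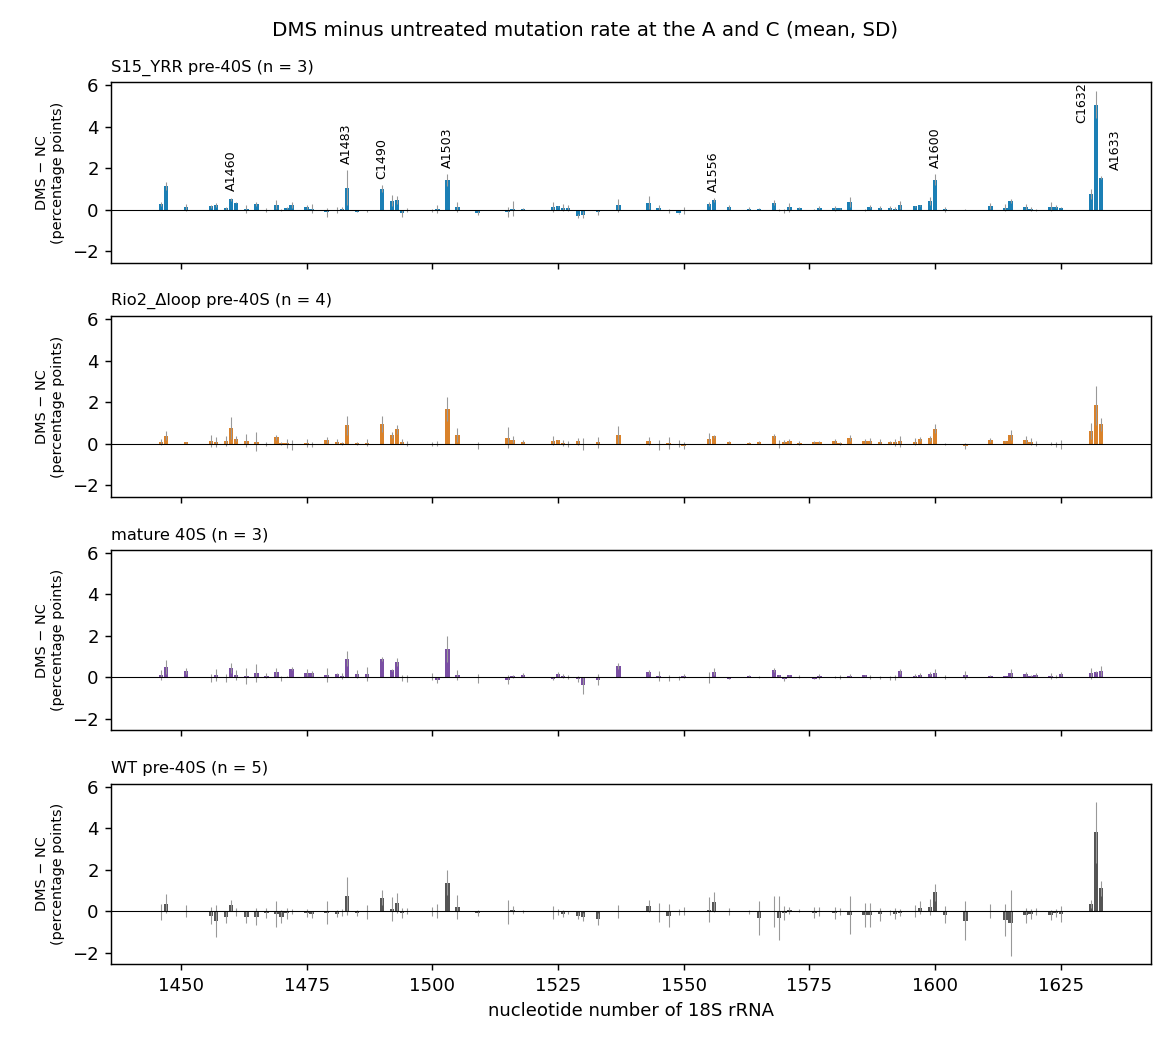
DMS minus NC mutation rate in percentage points (y axis) at the 88 A and C of A1446 to A1633 of 18S (x axis), with bars for the mean of the replicates and thin lines for the SD, in S15_YRR pre-40S, Rio2_Δloop pre-40S, mature 40S and WT pre-40S; the 8 tested nucleotides are named. C1632 at the right end stands at 5.08 in S15_YRR, 1.84 in Rio2_Δloop, 0.241 in mature 40S and 3.80 in WT, while A1503 stays between 1.37 and 1.66 in all 4 particles.

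To place the reactive bases, the RNA from A1446 to C1620 was folded alone with RNAfold at 30 °C, and the neck strand was paired with U1145 to C1158 by RNAduplex. This is a prediction from sequence, with no protein and no tertiary contact, and helix numbers were not assigned to it. All 8 tested members were unpaired in it, where 40 of the 88 members were unpaired and 48 paired. The mean DMS minus NC rate over the 15 replicates was above 0.2 percentage points at 17 members, of which 14 were predicted unpaired and 3 paired (A1493, C1537 and A1543). By base, the median was 0.101 over 25 unpaired A and 0.0202 over 15 paired A, and 0.085 over 15 unpaired C and -0.0122 over 33 paired C. A1460, A1503, A1556 and A1600 lay in predicted hairpin loops, and the hairpins of the last 3 are shown with the loop in capitals.
A1503, G1498 to C1509: ggccGAGAgguc
A1556, G1546 to C1565: gagcauugUAAUuauugcuc
A1600, A1587 to U1609: agcgcaaguCAUCAgcuugcguu

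In the neck the prediction gave 10 pairs, capitals below, between U1621 to U1630 and the strand that opens the head. The last bases of the stretch, A1631, C1632 and A1633, stayed outside them. By sequence alone, C1632 and A1633 are complementary to G1146 and U1145 if A1631 is skipped, but the prediction did not include these pairs. Whether they form in any of the particles was not tested.
Neck, U1145 to C1158: ugACgGAAGGGCAc
Neck, return strand, U1621 to A1633: UGCCCUUUGUaca

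C1632, at the foot of the neck, was the most reactive member and the one that differed most between particles. Its DMS minus NC rate was 4.56, 4.83 and 5.84 percentage points in S15_YRR replicates 1 to 3, and 1.79, 0.848, 1.63 and 3.08 in Rio2_Δloop replicates 1 to 4. It was 0.208, 0.289 and 0.226 in mature 40S replicates 1 to 3, and 2.07, 3.31, 3.5, 6.12 and 3.99 in WT replicates 1 to 5. The mature values lay below those of all 12 pre-40S replicates, and S15_YRR lay above all Rio2_Δloop replicates. Rio2_Δloop replicate 4 exceeded WT replicate 1. The library scale adjusts for the level of the mutation rates in each DMS library, background included. After division by it the Rio2_Δloop values were 1.03 to 2.33 and the WT values 2.77 to 4.56, without overlap.

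Differences were tested with edgeR's quasi-likelihood test on the DMS mutation counts of all 15 replicates over the 106 A and C of 18S that passed the signal limit, with Benjamini-Hochberg adjustment over the 106 and a threshold of 0.05. A log2 change of 1 here is a doubling of the DMS mutation rate after division by the library scale. This rate still holds the background seen without DMS, so its change differs from the change in the subtracted rate. C1632 fell in Rio2_Δloop against WT by 0.96 on the log2 scale (SE 0.136; adjusted p = 1.71e-05). It fell in mature 40S against WT by 2.77 (SE 0.174; adjusted p = 7.97e-12). The log2 change of S15_YRR over WT, 0.04 (SE 0.142), did not pass the threshold (adjusted p = 0.939). The remaining pairs were called too: the log2 change was 1.01 for S15_YRR over Rio2_Δloop (SE 0.149; adjusted p = 7.98e-05), 2.82 for S15_YRR over mature 40S (SE 0.183; adjusted p = 1.78e-11) and 1.81 for Rio2_Δloop over mature 40S (SE 0.176; adjusted p = 4.54e-08).

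Rio2_Δloop thus had a level at C1632 that differed from WT and from mature 40S, and lay between them. Within library set 1 the log2 changes were -0.94 for Rio2_Δloop over WT (adjusted p = 0.013), -2.74 for mature over WT (adjusted p = 8.92e-07) and 1.07 for S15_YRR over Rio2_Δloop (adjusted p = 0.00812). In set 2 the Rio2_Δloop values of 1.79 and 0.848 percentage points stood against 3.31 and 3.5 in WT. NC rates at C1632 averaged 0.588% in S15_YRR, 0.727% in Rio2_Δloop, 0.492% in mature 40S and 0.905% in WT, where WT replicate 1 had 1.47% and the other 4 replicates 0.6% to 0.952%.

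A1633, the neighbour of C1632, was called between each precursor and the mature subunit, and in no comparison between precursors. Its DMS minus NC rate was 1.49, 1.54 and 1.63 percentage points in S15_YRR, 0.944, 0.596, 0.803 and 1.35 in Rio2_Δloop, 0.16, 0.599 and 0.204 in mature 40S, and 1.46, 0.748, 0.868, 1.52 and 0.926 in WT. Only mature replicate 2, at 0.599, reached the level of a precursor replicate, the 0.596 of Rio2_Δloop replicate 2. The log2 change was 1.15 for S15_YRR over mature 40S (SE 0.18; adjusted p = 2.99e-05), 1.02 for Rio2_Δloop over mature 40S (SE 0.171; adjusted p = 0.00017) and -1.09 for mature 40S over WT (SE 0.166; adjusted p = 1.36e-05). Between precursors the changes were 0.06 for S15_YRR over WT (SE 0.153; adjusted p = 0.935), -0.07 for Rio2_Δloop over WT (SE 0.141; adjusted p = 0.796) and 0.13 for S15_YRR over Rio2_Δloop (SE 0.159; adjusted p = 0.731), although the subtracted rates of the last pair did not overlap. Rio2_Δloop was thus called against WT at C1632 and not at the adjacent A1633, and the difference between the bases was not tested. A1631, the next base inwards, had 0.6 to 1.03 percentage points in S15_YRR, 0.363 to 1.21 in Rio2_Δloop, -0.114 to 0.396 in mature 40S and 0.135 to 0.576 in WT, and its signal was below the limit for testing.

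On the opposite strand of the neck, outside the stretch, A1147 and C1148 are predicted partners of U1630 and G1629. They were not among the nucleotides planned to be named. C1148 had 1.32 ± 0.0646 percentage points in S15_YRR (SD, n = 3), 0.567 ± 0.235 in Rio2_Δloop (n = 4), 0.0956 ± 0.151 in mature 40S (n = 3) and 0.911 ± 0.547 in WT (n = 5). Its log2 change was -0.70 in Rio2_Δloop over WT (SE 0.176; adjusted p = 0.00721) and -0.92 in mature 40S over WT (SE 0.205; adjusted p = 0.00115). A1147 had 1.06 ± 0.128 in S15_YRR, 0.637 ± 0.31 in Rio2_Δloop, 0.122 ± 0.189 in mature 40S and 0.985 ± 0.346 in WT, and its log2 change was -0.40 in Rio2_Δloop over WT (SE 0.191; adjusted p = 0.173) and -1.32 in mature 40S over WT (SE 0.237; adjusted p = 9.24e-05). Against mature 40S, the log2 change of Rio2_Δloop at C1148 was 0.22 (SE 0.218) and did not pass the threshold (adjusted p = 0.525). The subtracted rates of this pair did not overlap, at 0.286 to 0.859 in Rio2_Δloop and -0.0623 to 0.239 in mature 40S. At A1147 the change of Rio2_Δloop over mature 40S was 0.92 (SE 0.247, adjusted p = 0.00979). S15_YRR over Rio2_Δloop gave 0.79 at C1148 (SE 0.195, adjusted p = 0.0126) and 0.27 at A1147 (SE 0.216, adjusted p = 0.636). The C of the neck that are predicted to pair, C1623, C1624 and C1625, had means of 0.095 to 0.157 percentage points in S15_YRR, -0.036 to -0.00333 in Rio2_Δloop, 0.0313 to 0.151 in mature 40S and -0.177 to -0.0941 in WT. WT replicate 1 stood at -0.817 to -0.399 at these 3 C, and without it the WT means were -0.0907 at C1623, -0.018 at C1624 and 0.00701 at C1625.

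**Figure D2:**
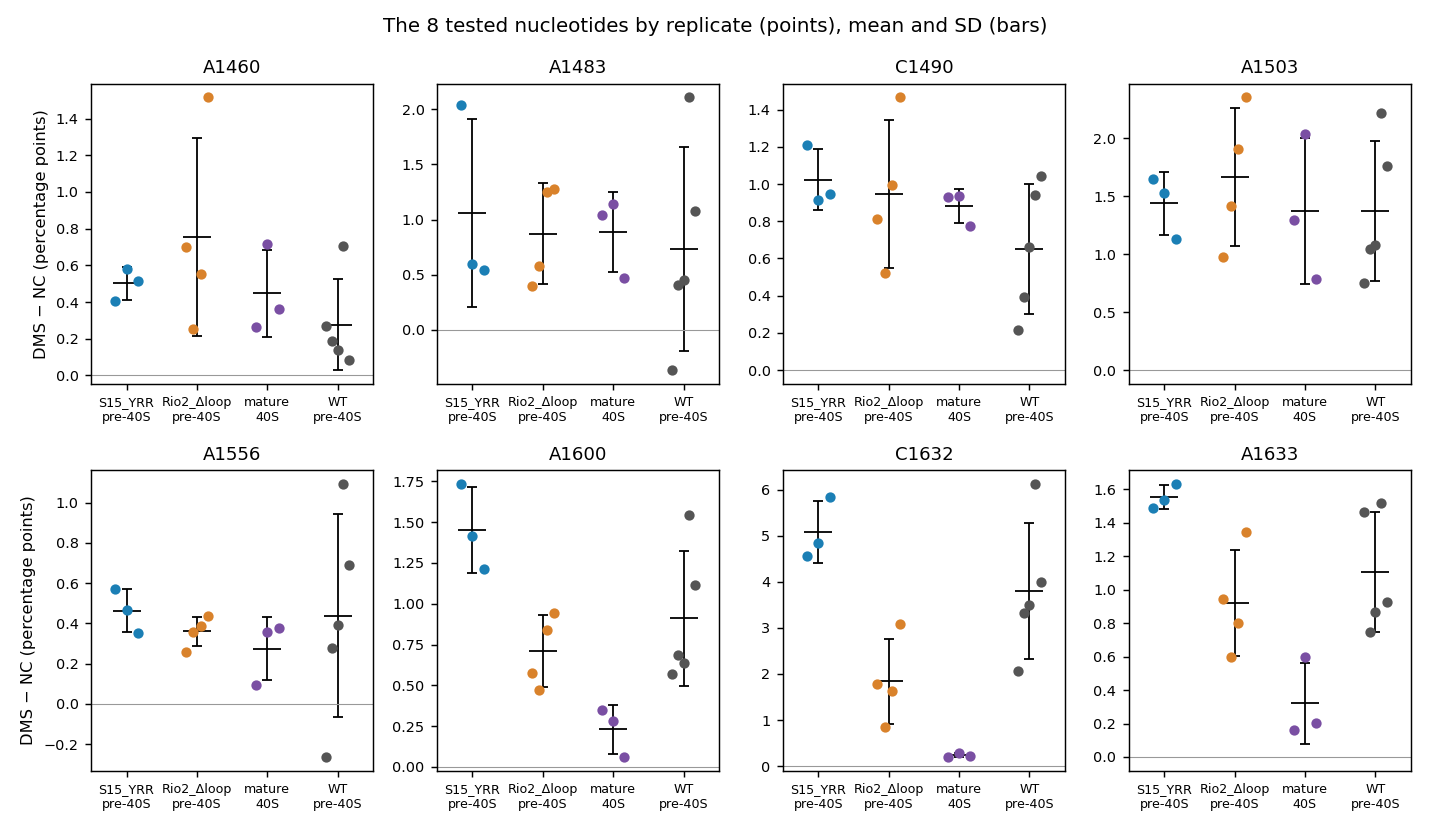
DMS minus NC mutation rate in percentage points (y axis, a separate scale in each panel) of each replicate (points) at the 8 tested nucleotides, with the mean and SD (bars), for S15_YRR pre-40S, Rio2_Δloop pre-40S, mature 40S and WT pre-40S (x axis). At C1632 the mature values of 0.208 to 0.289 lie below all others; at A1483, C1490 and A1503 the 4 particles overlap.

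A1600, the last base of the hairpin loop shown above, had its lowest mean in mature 40S and its highest in S15_YRR. Its DMS minus NC rate was 1.73, 1.41 and 1.21 percentage points in S15_YRR, 0.576, 0.475, 0.840 and 0.946 in Rio2_Δloop, 0.351, 0.280 and 0.0614 in mature 40S, and 0.571, 0.685, 0.640, 1.54 and 1.11 in WT. The mature values lay below those of all precursor replicates, and the S15_YRR values above those of all Rio2_Δloop replicates. The log2 change was -0.83 for mature 40S over WT (SE 0.138; adjusted p = 4.13e-05), 1.15 for S15_YRR over mature 40S (SE 0.149; adjusted p = 2.25e-06), 0.56 for Rio2_Δloop over mature 40S (SE 0.143; adjusted p = 0.00694) and 0.60 for S15_YRR over Rio2_Δloop (SE 0.133; adjusted p = 0.00692).

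Neither mutant passed the threshold against WT at A1600, the log2 change being 0.33 for S15_YRR (SE 0.127; adjusted p = 0.461) and -0.27 for Rio2_Δloop (SE 0.12; adjusted p = 0.143). The WT rates at this base were higher in set 1 (1.54 and 1.11 percentage points in replicates 4 and 5) than in set 2 (0.685 and 0.640 in replicates 2 and 3), and after division by the library scale they were closer, at 1.09 and 0.978 in set 1 and 0.943 and 0.784 in set 2. Divided in the same way, S15_YRR was at 1.43, 1.25 and 1.16, above all WT replicates. The unadjusted edgeR p of S15_YRR over WT was 0.0174. S15_YRR lay in set 1 alone. Within set 1 the log2 change of S15_YRR over Rio2_Δloop was 0.46 (adjusted p = 0.0563) and that of mature 40S over WT -0.93 (adjusted p = 0.000144). With the NC libraries as an interaction term, the change of S15_YRR over Rio2_Δloop was 0.14 (adjusted p = 0.856). The loop's other members were weaker: C1599 had means of 0.422 percentage points in S15_YRR, 0.256 in Rio2_Δloop, 0.179 in mature 40S and 0.202 in WT, and A1597 had 0.209, 0.223, 0.126 and 0.168 in the same order.

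A1460 was called in Rio2_Δloop. Its DMS minus NC rate was 0.698, 0.252, 0.554 and 1.52 percentage points in Rio2_Δloop, against 0.270, 0.185, 0.141, 0.703 and 0.0829 in WT, and the replicates overlapped. It was 0.407, 0.581 and 0.516 in S15_YRR and 0.264, 0.717 and 0.360 in mature 40S. The log2 change was 0.70 for Rio2_Δloop over WT (SE 0.188; adjusted p = 0.0105), 0.79 for Rio2_Δloop over mature 40S (SE 0.232; adjusted p = 0.0201) and -0.71 for S15_YRR over Rio2_Δloop (SE 0.223; adjusted p = 0.0574). NC rates were 0.454% in Rio2_Δloop, 0.243% in mature 40S and 0.428% in WT. With the NC libraries as an interaction term the change of Rio2_Δloop was 0.40 over WT (adjusted p = 0.436) and 0.14 over mature 40S (adjusted p = 0.833), and without Rio2_Δloop replicate 1 the adjusted p against WT was 0.0561 and against mature 40S 0.0686. Without Rio2_Δloop replicate 4, mature replicate 1 or mature replicate 3 the call against mature 40S was lost as well (adjusted p of 0.0646, 0.0523 and 0.0781).

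No tested base of the long hairpin in the middle of the stretch was called in any comparison. A1503, in a GAGA loop, was the most reactive of these, with 1.65, 1.52 and 1.13 percentage points in S15_YRR, 0.978, 1.42, 1.91 and 2.35 in Rio2_Δloop, 1.30, 2.04 and 0.783 in mature 40S and 0.748, 1.04, 1.08, 2.22 and 1.76 in WT. Its log2 change from WT was -0.12 in S15_YRR (SE 0.127), 0.06 in Rio2_Δloop (SE 0.114) and -0.28 in mature 40S (SE 0.131), with adjusted p of 0.768, 0.774 and 0.143. C1490, in an internal loop, averaged 1.02 ± 0.164 percentage points in S15_YRR, 0.947 ± 0.396 in Rio2_Δloop, 0.881 ± 0.0924 in mature 40S and 0.650 ± 0.351 in WT. A1483 averaged 1.06 ± 0.85 in S15_YRR, 0.874 ± 0.454 in Rio2_Δloop, 0.886 ± 0.361 in mature 40S and 0.736 ± 0.923 in WT, where WT replicate 1 was at -0.365 and WT replicate 4 at 2.11. The adjusted p of C1490 was at least 0.757 and that of A1483 at least 0.652 over the 6 comparisons. Near C1490, A1492 and A1493 had means over the 15 replicates of 0.304 and 0.563 percentage points and were not tested.

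A1556, in the UAAU loop of the following hairpin, averaged 0.463 ± 0.108 percentage points in S15_YRR, 0.359 ± 0.074 in Rio2_Δloop, 0.275 ± 0.156 in mature 40S and 0.438 ± 0.503 in WT. Its log2 change in mature 40S over WT was -0.65 (SE 0.257; adjusted p = 0.0771). Without WT replicate 1, which was at -0.264, the change was -0.73 and passed the threshold (adjusted p = 0.0342).

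**Figure D3:**
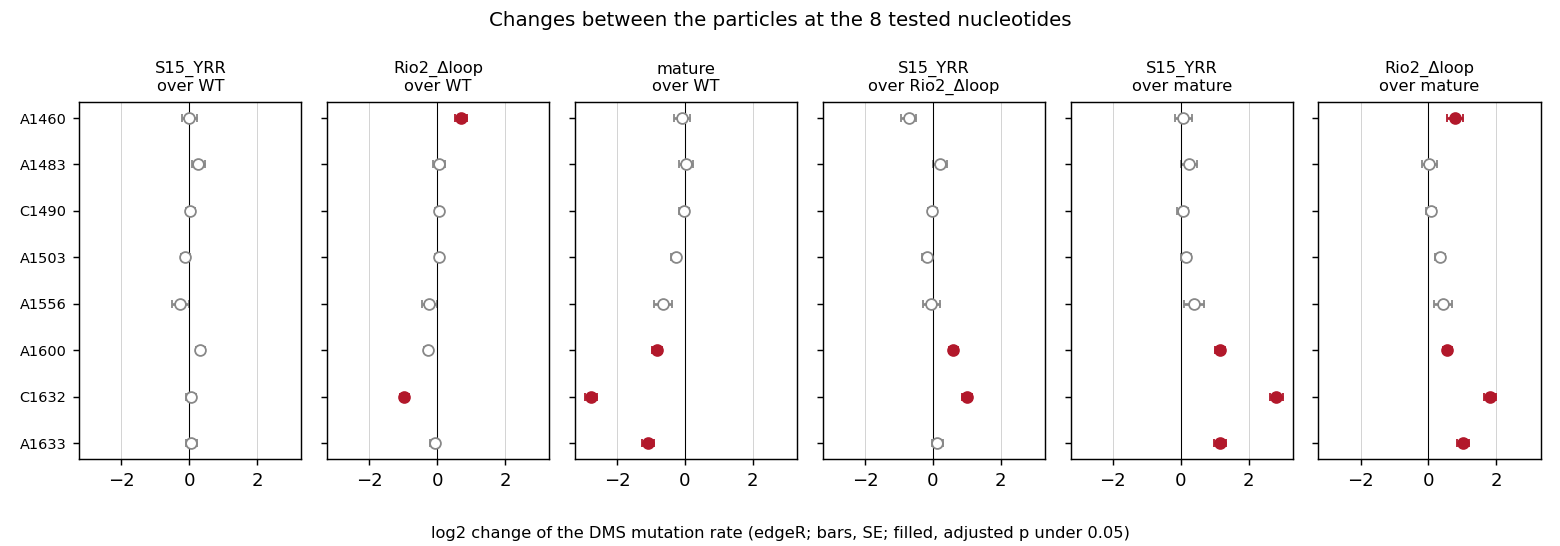
Log2 change of the DMS mutation rate (x axis; points, with SE as bars; filled where the edgeR adjusted p is under 0.05) at the 8 tested nucleotides (y axis) in the 6 comparisons (panels). C1632 is filled in 5 of the 6 panels, with the exception of S15_YRR over WT, and A1483, C1490, A1503 and A1556 in none.

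Counted over the stretch, S15_YRR over WT had 0 of 8 tested members past the threshold with edgeR, against 0.943% of the 106 tested nucleotides of 18S, all higher. Of the 8, 1 had an unadjusted p under 0.05, and DESeq2 called 0. Rio2_Δloop over WT had 2 of 8, A1460 higher and C1632 lower, against 15.1% of all tested (6.6% higher and 8.49% lower). Mature 40S over WT had 3 of 8, all lower, against 21.7% (6.6% higher and 15.1% lower). S15_YRR over Rio2_Δloop had 2 of 8, both higher, against 6.6% (5.66% higher and 0.943% lower). S15_YRR over mature 40S had 3 of 8, all higher, against 17.9% (13.2% higher and 4.72% lower). Rio2_Δloop over mature 40S had 4 of 8, all higher, against 17.9% (14.2% higher and 3.77% lower). The median log2 change of the 8 was 0.04, -0.02, -0.46, 0.06, 0.32 and 0.49 in these 6 comparisons, and over the 106 it was 0.03, 0.00, 0.03, 0.00, -0.02 and 0.01. The library scale is a median of ratios over these same 106, so medians near 0 over the 106 follow largely from the scaling. The shares rest on 8 nucleotides, and no difference from the rest of 18S was tested. The signal limit averaged all replicates, most of them pre-40S, so it admits bases that are reactive in the precursors alone. In mature 40S the mean DMS and NC rates were 0.957% and 0.726% at A1600, 0.733% and 0.492% at C1632, and 0.979% and 0.658% at A1633. None of these DMS rates was 2 times the NC rate. The direction of the calls against mature 40S and the medians there are not independent of this limit. The comparisons share their groups, so their calls are not independent of each other.

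Among the 80 untested members, the mean over the 15 replicates was at most 0.563 percentage points, that of A1493. C1447, at the 5' end of the stretch, had 1.16, 0.933 and 1.32 percentage points in S15_YRR, 0.612, 0.0997, 0.305 and 0.459 in Rio2_Δloop, 0.240, 0.373 and 0.906 in mature 40S and -0.390, 0.465, 0.477, 0.858 and 0.350 in WT. The S15_YRR replicates lay above all replicates of the other particles. In an edgeR fit without the signal limit its log2 change in S15_YRR was 0.57 over WT (SE 0.259, unadjusted p = 0.039, adjusted p = 0.902). Over Rio2_Δloop it was 0.67 (SE 0.273, unadjusted p = 0.023, adjusted p = 0.576). Neither passed the threshold over the 776 A and C tested there. That fit used the DMS rate with its background, so it does not test the subtracted rates. The lowest means over all replicates were those of C1530, C1533, C1606, C1529 and A1569, from -0.224 to -0.102 percentage points. At C1606 and A1569, WT replicate 1 stood at -2.14 and -2.19.

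The same fit called 0 members for S15_YRR over WT, where it called 0% of the 776 A and C of 18S and 3 of the 88 had an unadjusted p under 0.05. It called C1632 alone for Rio2_Δloop over WT (0.515% of the 776), S15_YRR over Rio2_Δloop (0.129%) and Rio2_Δloop over mature 40S (1.55%). It called A1600, C1632 and A1633 for S15_YRR over mature 40S (2.96%). For mature 40S over WT it called C1472, C1632 and A1633 (4.77%). C1472, singled out after its values were seen, averaged 0.423 percentage points in mature 40S and -0.0196 in WT, and its log2 change was 0.83 (SE 0.211; adjusted p = 0.0194).

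Without any model, the DMS minus NC rates of S15_YRR and WT did not overlap at 10 of the 88 members, all higher in S15_YRR, where 5.54% of the 776 A and C of 18S did not overlap, all higher. For Rio2_Δloop and WT it was 3 of 88, all higher, against 3.74% (3.48% higher and 0.258% lower). For mature 40S and WT it was 10 of 88, of which 7 were higher and 3 lower, against 8.51% (6.96% higher and 1.55% lower). S15_YRR and Rio2_Δloop did not overlap at 6, of which 4 were higher and 2 lower, against 6.06% (3.09% higher and 2.96% lower). S15_YRR and mature 40S did not overlap at 15, of which 11 were higher and 4 lower, against 11% (7.6% higher and 3.35% lower). Rio2_Δloop and mature 40S did not overlap at 8, of which 6 were higher and 2 lower, against 7.99% (5.8% higher and 2.19% lower). The 3 members lower in mature 40S than in WT were A1600, C1632 and A1633, the 3 that edgeR called.

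**Figure D4:**
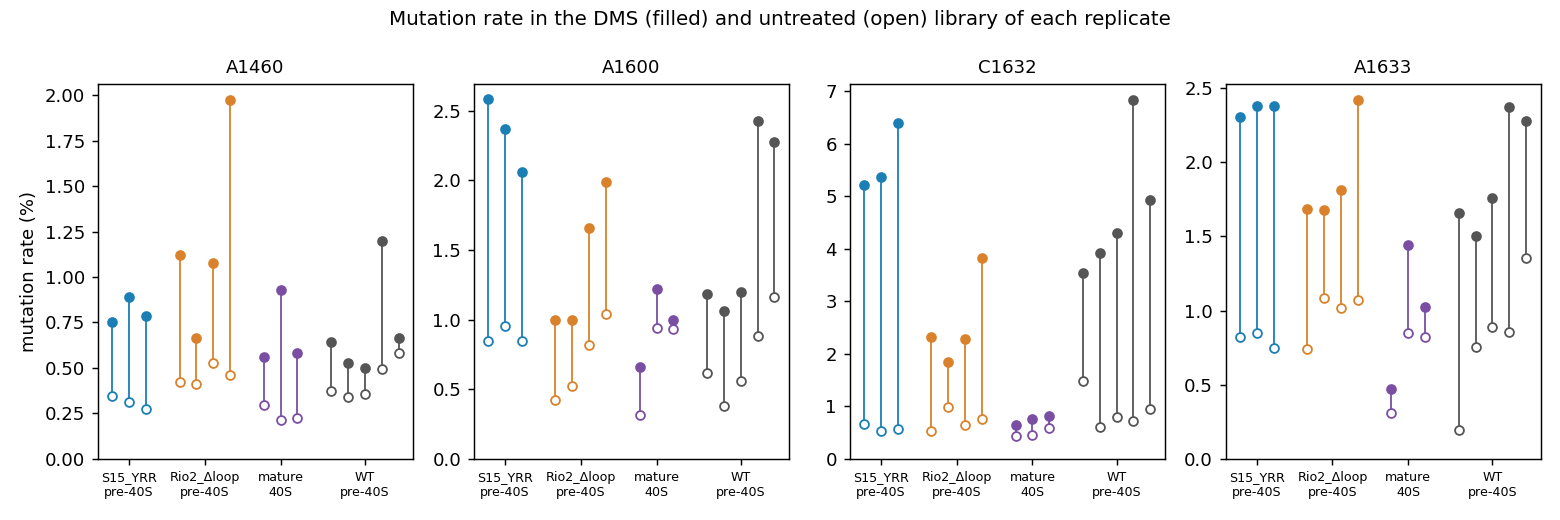
Mutation rate in percent (y axis) of the DMS library (filled) and the NC library (open) of each replicate, joined by a line, at A1460, A1600, C1632 and A1633, for S15_YRR pre-40S, Rio2_Δloop pre-40S, mature 40S and WT pre-40S, with replicates in order from left to right within each particle. At C1632 the DMS and NC points of mature 40S nearly meet, with a mean difference of 0.241 percentage points, while the NC points are 0.492% to 0.905% on average in all 4 particles.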

How the data were processed

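The authors' deposited profiles give, per position of a reference of 2012 nucleotides, the mutations and the effective read depth as counts and the mutation rate as a fraction, per the file headers; aligner, counter and versions are not given in the sources used here. The authors' deposited normalized accessibility signal served only as an alternative. Rates were recomputed from the counts. Library sets came from clustering the untreated log2 rates (average linkage, distance 0.25; r at least 0.845 within and at most 0.634 between sets). Tests used edgeR 4.0.16 (robust quasi-likelihood) in R 4.3.3 with effective depth times library scale, a median of ratios, as offset, in 1 fit of the 15 DMS libraries. Simulated data with known changes were used to test the script. Alternatives used limma 3.58.1 on log2 values and DESeq2 1.42.0. Pairing came from ViennaRNA 2.7.2, with a neck partner strand 1 base longer than planned, chosen after seeing the data; the planned strand gave the same pairs. Python 3.11.15, numpy 2.4.6, pandas 2.3.3, scipy 1.17.1 and matplotlib 3.10.9 made the tables and figures. Every tested member was to be named, with the 5 highest and 5 lowest untested. Members, lists and tests were chosen with earlier results of these data known. P-values measure the spread between the replicates numbered in the sample titles, which do not say what kind of replicate they are. The number of reads is not a number of molecules.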

Additional observations from a re-analysis of the deposited data

Results flagged for a closer look

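Replicates were checked for a value far from the others of its group in the groups of 4 and 5, at the 18 named members and in the means over all members, 40 groups in all, of which 4 stood out; chance gives about 1 in 20 groups. At A1631, Rio2_Δloop replicate 4 had a DMS minus NC rate of 1.21 percentage points, against 0.363 to 0.506 in the other Rio2_Δloop replicates. The other cases were WT replicate 1. It had -2.14 percentage points at C1606, against -0.143 to 0.0853 in the other WT replicates, and -2.19 at A1569, against -0.0795 to 0.352. Its mean over the 48 C was -0.566, against 0.0186 to 0.199. None of these nucleotides carries a call.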

How the results depend on the processing

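No member changed the sign of a called difference in 28 alternatives per comparison. The calls at C1632 for Rio2_Δloop over WT, mature 40S over WT, S15_YRR over mature 40S and Rio2_Δloop over mature 40S, at A1633 for mature 40S over WT and at A1600 for S15_YRR over mature 40S held in all 28; C1632 for S15_YRR over Rio2_Δloop was lost with the deposited accessibility (adjusted p = 0.106), and A1633 for S15_YRR over mature 40S with the interaction with the untreated libraries (0.105). For Rio2_Δloop over WT the called members were 1 in place of 2 without a library scale, without the signal limit, within set 1, with the interaction and with limma on subtracted rates (pseudocounts 0.1 and 0.5) and on the deposited accessibility, and 1 to 2 leaving out a replicate, with A1460 the member lost; with the set as a term there were 3, A1600 joining. For S15_YRR over Rio2_Δloop they were 1 in place of 2 without a library scale, without the signal limit, within set 1, with the interaction and with limma on subtracted rates, and 0 with limma on the deposited accessibility (1 of 8 with an unadjusted p under 0.05), and A1460 joined, for a count of 3, in 8 alternatives, DESeq2 among them, with 2 to 3 leaving out a replicate. For Rio2_Δloop over mature 40S they were 1 in place of 4 without a library scale, without the signal limit and with the interaction, and 3 to 4 leaving out a replicate. A1600 for mature 40S over WT was lost without a library scale (adjusted p = 0.0857) and without the signal limit (0.0568). Over all of 18S the called nucleotides ran from 0 to 2 for S15_YRR over WT (1 as reported), 4 to 25 for Rio2_Δloop over WT (16), 6 to 37 for mature 40S over WT (23), 0 to 13 for S15_YRR over Rio2_Δloop (7), 1 to 23 for S15_YRR over mature 40S (19) and 4 to 27 for Rio2_Δloop over mature 40S (19) in 29 alternatives each. The causes were not tested. Without C1632, a choice made after seeing the data, the mean over the C was 0.115 in S15_YRR, 0.0966 in Rio2_Δloop, 0.0998 in mature 40S and -0.108 in WT. With a limit of 5 times the untreated rate no member was left. Replicate numbers did not pair the particles (r of deviations from -0.345 to 0.319 over 19 same-numbered pairs, with the same number the best match in 5); the replicate block kept the called counts at 0, 2, 3, 2, 3 and 4. Leaving out the library scale shifted the median over the nucleotides tested by up to 0.24 on the log2 scale (S15_YRR over WT), and limma with a pseudocount of 0.1 by up to 0.34. Small rates limit what could be seen: 80 of 88 members fell below the signal limit, which does not show that they were alike. The limit averaged the NC rates of all replicates, WT replicate 1 among them. It was not recomputed when a replicate was left out. WT replicate 1 had an NC rate of 1.14% at A1493 and 1.83% at C1568, against at most 0.755% and 0.393% in the other replicates.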
